A study of Homo sapiens with 6 samples.

Results

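Keratins are the intermediate filament proteins of epithelia, and 7 keratin genes (KRT7, KRT8, KRT18, KRT19, KRT34, KRT80 and KRT81) and KRTAP1-5 were followed here in U87MG cells that overexpressed LMO2. They were selected on the comparison of these same libraries, so their differences are given as a description. All 8 were found by symbol and Entrez gene ID among the 27259 genes listed, which held 53 keratin (KRT) and keratin-associated protein (KRTAP) symbols. U87MG is an established human glioblastoma cell line. The 3 U87MG-control libraries came from cells given a control lentivirus for 24 h, and the 3 U87MG-LMO2 libraries from cells given an LMO2 lentivirus for 24 h. LMO2 encodes a LIM-domain adaptor protein, and the methods describe a lentiviral LMO2 construct with a CMV promoter. A single cell line was used, and the labels do not say whether replicates were separate cultures, so the SD and SE measure only the spread between these libraries.

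A keratin filament is built from pairs of a type I and a type II keratin. KRT8 and KRT18 form the pair of simple epithelia, KRT7 and KRT19 are further simple epithelial keratins of type II and type I, and KRT80 is a type II keratin found in many epithelia. KRT34 (type I) and KRT81 (type II) are hair keratins, and KRTAP1-5 belongs to the cysteine-rich proteins that surround keratin filaments in the hair shaft. Glial and mesenchymal cells build their filaments mainly from vimentin and, in astrocytes, from GFAP.

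KRTAP1-5 was about 28-fold higher in U87MG-LMO2 and KRT80 about 1.6-fold higher. KRT7 was higher and KRT8 and KRT18 were lower by smaller amounts that did not pass the test or were not tested. KRT34 varied more within the groups than between them, and KRT19 and KRT81 were almost without counts. The type II keratins other than KRT80 together had nearly the same level in both groups.

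In GENCODE v29 (GRCh38) the type II genes lie in the keratin cluster of chromosome 12. KRT80 spans chr12:52168996-52192000 (minus strand), KRT7 chr12:52232520-52252186 (plus strand) and KRT81 chr12:52285913-52291534 (minus strand). KRT8, at chr12:52897187-52949954 on the minus strand, overlaps KRT18, at chr12:52948871-52952901 on the plus strand, by 1084 bases. The other members lie on chromosome 17, with KRTAP1-5 at chr17:41026026-41027202, KRT34 at chr17:41377650-41382403 and KRT19 at chr17:41523617-41528308, all on the minus strand. KRTAP1-5 has 1 exon, and the 7 keratins have 6 to 9.

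Because keratin genes resemble each other, the coding transcript of each member was searched for 50-base windows that also occur in transcripts of another gene, on either strand. KRT80 shared 0.4% of its windows, KRT19 1.8% and KRTAP1-5 4.4%. KRT7 shared 10.8%, nearly all with its antisense gene, and KRT34 shared 11.4%, most of them with KRT33B. The shares were 41.3% for KRT8 and 44.6% for KRT81, whose closest copy was KRT86. KRT18 shared 47.6%, the largest part with the overlapping gene KRT8. Read length and the strand setting of the counting are not given in the sources used here, so reads in shared windows may have been divided between the copies. The sequences printed next are shown because they are the longest coding stretches that KRT34 and KRTAP1-5 share with their closest copies. They are 113 and 71 bases long, start at coding bases 271 and 157, and are identical in both genes of the pair.
KRT34 and KRT33B: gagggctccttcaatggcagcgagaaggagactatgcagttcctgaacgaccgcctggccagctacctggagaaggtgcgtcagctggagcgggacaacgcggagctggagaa
KRTAP1-5 and KRTAP1-3: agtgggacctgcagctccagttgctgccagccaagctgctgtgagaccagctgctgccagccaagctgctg
KRTAP1-3 had no line in any library, and KRT33B had 33.28 to 71.85 counts.

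The 250 bases before the annotated start of KRTAP1-5, KRTAP2-3 and KRTAP16-1 are shown from RefSeq (GRCh38.p14). They lie on the minus strand at chr17:41027209-41027458, chr17:41060115-41060364 and chr17:41309310-41309559. KRTAP2-3 and KRTAP16-1 are shown because they too were higher in every U87MG-LMO2 library, not for nearness. KRTAP1-1, whose window at chr17:41041451-41041700 lies nearer to KRTAP1-5, had overlapping groups. Both strands were searched for TATAAA, for the E-box letters CANNTG, for TTCNNNGAA, the letters that STAT factors bind, and for the AP-1 letters TGANTCA. Capitals mark the matches, none of which overlapped another.
KRTAP1-5: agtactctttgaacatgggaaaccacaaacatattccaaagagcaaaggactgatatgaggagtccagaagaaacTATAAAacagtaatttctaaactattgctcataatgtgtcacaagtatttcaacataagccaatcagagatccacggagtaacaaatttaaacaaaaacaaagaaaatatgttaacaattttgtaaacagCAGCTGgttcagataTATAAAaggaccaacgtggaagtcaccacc
KRTAP2-3: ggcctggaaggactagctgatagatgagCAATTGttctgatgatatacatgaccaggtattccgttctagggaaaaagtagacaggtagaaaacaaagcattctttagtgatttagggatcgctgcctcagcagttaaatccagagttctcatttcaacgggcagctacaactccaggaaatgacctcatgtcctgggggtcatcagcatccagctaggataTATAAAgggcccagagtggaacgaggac
KRTAP16-1: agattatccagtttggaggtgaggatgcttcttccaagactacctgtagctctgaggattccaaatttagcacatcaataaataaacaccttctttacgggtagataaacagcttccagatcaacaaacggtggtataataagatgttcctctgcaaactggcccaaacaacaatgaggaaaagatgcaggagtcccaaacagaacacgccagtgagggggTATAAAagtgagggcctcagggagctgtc
Each window held TATAAA 28 to 30 bases before the start, and that of KRTAP1-5 held it again at 175 bases. The same letters stood 28 to 31 bases before the start of KRTAP1-1, KRT33B and KRT34, whose groups overlapped. CANNTG occurred once in KRTAP1-5, at 45 bases, and once in KRTAP2-3. Of 35116 promoters of this length, 10.7% held TATAAA, 61.8% CANNTG, 6.6% TTCNNNGAA and 6.6% TGANTCA. Neither of the last-named letter strings occurred in these 3 windows.

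Total expected counts were between 11428432 and 17892955 per library, with all 3 control libraries below all 3 of U87MG-LMO2. Expected counts are estimated reads per gene, FPKM are these scaled to gene length and to the reads of the library, and CPM are counts scaled to the adjusted library total alone. LMO2 itself had 7, 11 and 5 counts in U87MG-control and 5459, 4503 and 14570 counts in U87MG-LMO2, with vector and endogenous reads counted together. Its log2 fold change was 9.70 ± 0.60 (SE, n = 3 per group). U87MG-LMO2 replicate 3 stood apart, with a chi-square per degree of freedom of 37.88 and 53.0 against the other libraries of its group, where no other pair within a group exceeded 11.05. The groups' differences were therefore also computed without it. Of 16092 genes that passed the filter on low counts, the edgeR test with Benjamini-Hochberg adjustment called 4.72% higher and 2.75% lower in U87MG-LMO2 (adjusted p under 0.05). For 34.1% the groups did not overlap in CPM. Of the 8 members, 5 passed the filter, 2 were called higher and 0 lower. The groups did not overlap for 6 of the 8, namely 4 of the 5 tested genes and 2 of the 3 that the filter removed. Since these genes were chosen on this contrast, nothing is read from their counts against those of all genes. Here and in all results below, bulk RNA cannot tell fewer cells with a transcript from less transcript per cell.

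KRT8 (3856), the type II partner of simple epithelia, had 2.29, 2.25 and 2.09 FPKM in U87MG-control replicates 1 to 3 and 1.95, 1.76 and 1.66 FPKM in U87MG-LMO2 replicates 1 to 3. All U87MG-LMO2 libraries were below all control libraries. The log2 fold change was -0.34 ± 0.18 (SE) and was not called. KRT18 (3875), its type I partner, had 0.48, 0.46 and 0.51 FPKM in U87MG-control and 0.35, 0.38 and 0.27 FPKM in U87MG-LMO2. Again the groups did not overlap, but these values rest on 26.4 and 23.0 counts in all, and the filter removed the gene. The ratio of summed, depth-scaled counts was 0.692, with a 95% interval from 0.377 to 1.26 (exact binomial, counting error only, as for all intervals here). Per length, KRT8 was 4.10 to 4.89 times the level of KRT18 in U87MG-control and 4.63 to 6.15 times in U87MG-LMO2, and these ranges overlap. Summed with its listed pseudogene KRT8P41, KRT8 had a log2 fold change of -0.31. KRT18P55, the listed pseudogene of KRT18, had 15.2, 6 and 7.43 counts in U87MG-control and 8, 5 and 6.99 in U87MG-LMO2. Its groups overlapped in CPM. Summed, KRT18 and KRT18P55 had 23, 15 and 17 counts in U87MG-control and 16, 13 and 14 in U87MG-LMO2. No fold is given for this sum, and the division of reads between KRT18 and KRT18P55 was not tested.

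KRT19 (3880), a short type I keratin of simple epithelia, had 1 count in U87MG-control replicate 3, 1 count in U87MG-LMO2 replicate 3 and 0 counts in the other libraries. No fold is given, because both groups lie under the 3 counts that a count of 0 allows. KRT7 (3855), a type II keratin of glandular epithelia, had 0.96, 1.24 and 0.72 FPKM in U87MG-control and 1.55, 1.60 and 1.50 FPKM in U87MG-LMO2. Its U87MG-LMO2 libraries were all above the controls and lay closer together than the controls did. The log2 fold change of 0.63 ± 0.20 (SE) was not called, and it was 0.63 also without U87MG-LMO2 replicate 3.

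KRT80 (144501) was the most abundant keratin in every library. It had 6.17, 6.35 and 6.05 FPKM in U87MG-control and 12.04, 9.55 and 7.36 FPKM in U87MG-LMO2. The control libraries lay within a narrow range, and the U87MG-LMO2 libraries were all above it but far apart from each other. Means were 24.0 ± 0.576 and 38.2 ± 7.73 CPM (SD, n = 3), from 925.7 and 1823.9 counts in all. The log2 fold change of 0.67 ± 0.15 (SE), a 1.59-fold difference, was called. The library with the most LMO2, U87MG-LMO2 replicate 3, had the lowest KRT80 of its group, and leaving that library out gave a log2 fold change of 0.80. Without U87MG-LMO2 replicate 1, which had the highest KRT80, it was 0.51 and was no longer called, and the call was also lost without U87MG-LMO2 replicate 2 or any control library (0.65 to 0.69). After a correction for GC content it was 0.56 and not called. KRT80 made up 32.3%, 31.4% and 34.6% of the summed keratin FPKM in U87MG-control and 47.0%, 40.3% and 35.0% in U87MG-LMO2.

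**Figure D1:**
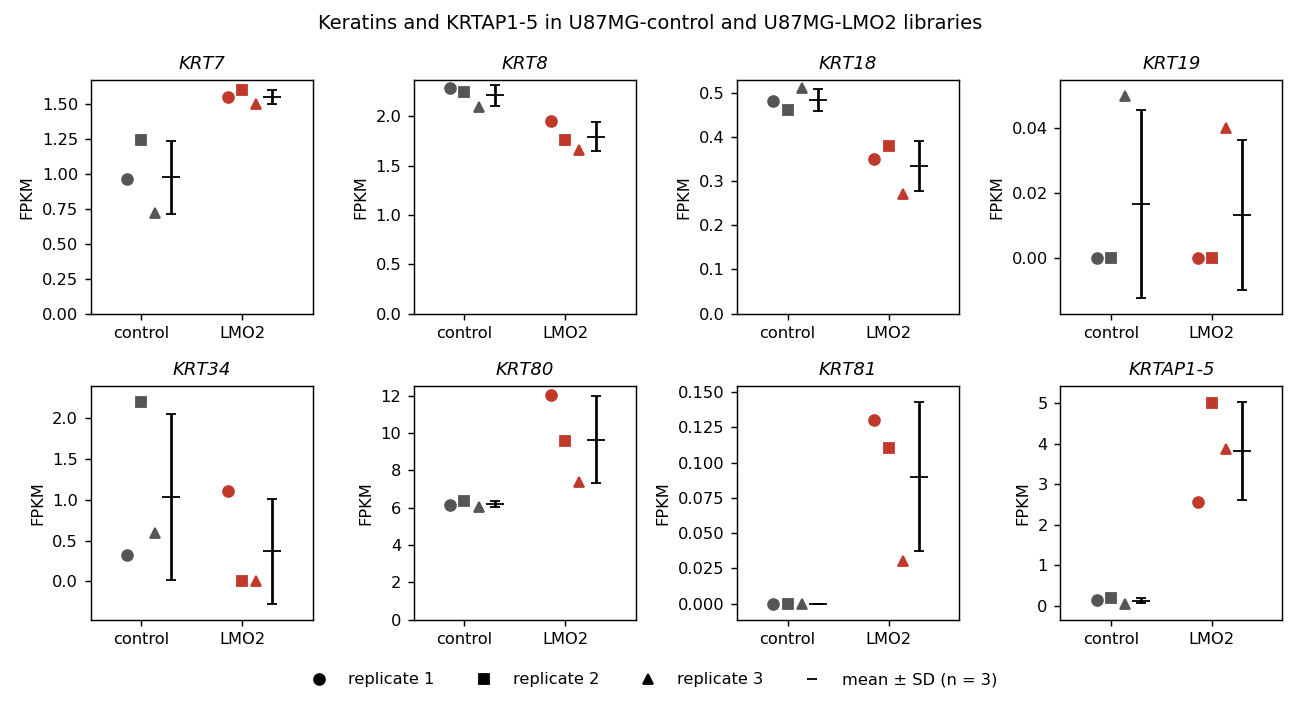
FPKM (vertical axes, a separate scale for each gene) of the 8 genes in the U87MG-control (grey) and U87MG-LMO2 (red) libraries, with a symbol for each replicate and the mean ± SD (n = 3) beside them. KRTAP1-5 lies between 0.06 and 0.19 FPKM in the controls and between 2.57 and 4.99 FPKM in U87MG-LMO2, whereas the groups overlap for KRT34 and KRT19.

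KRT34 (3885), a type I hair keratin, had 0.32, 2.19 and 0.59 FPKM in U87MG-control and 1.11, 0 and 0 FPKM in U87MG-LMO2. Counts were 6.29, 50.72 and 13.11 against 30.61, 0 and 0, so 1 library of each group held most of its reads. The groups overlapped, and the log2 fold change of -1.45 ± 1.13 (SE) was not called. It was -0.24 without U87MG-control replicate 2. Without U87MG-LMO2 replicate 1 only libraries at 0 remain in that group, and the fitted value of -7.64 is no measure of size. KRT33B (3884), a hair keratin that shares the stretch printed above, had 40.95, 33.28 and 38.04 counts in U87MG-control and 45.93, 67.39 and 71.85 counts in U87MG-LMO2. KRT33A (3883) had 0 counts in the controls and 0, 1.7 and 4.61 counts in U87MG-LMO2. The U87MG-LMO2 libraries with no KRT34 were thus those with the most KRT33B and the ones with KRT33A. Summed, the 3 genes had 47, 84 and 51 counts in U87MG-control and 77, 69 and 77 in U87MG-LMO2, with a log2 fold change of -0.01 ± 0.22 (SE). Their summed level was 2.87 ± 0.728 FPKM in U87MG-control and 2.82 ± 0.136 FPKM in U87MG-LMO2 (SD, n = 3). The part that the division of shared reads had in the values of KRT34 was not tested.

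**Figure D2:**
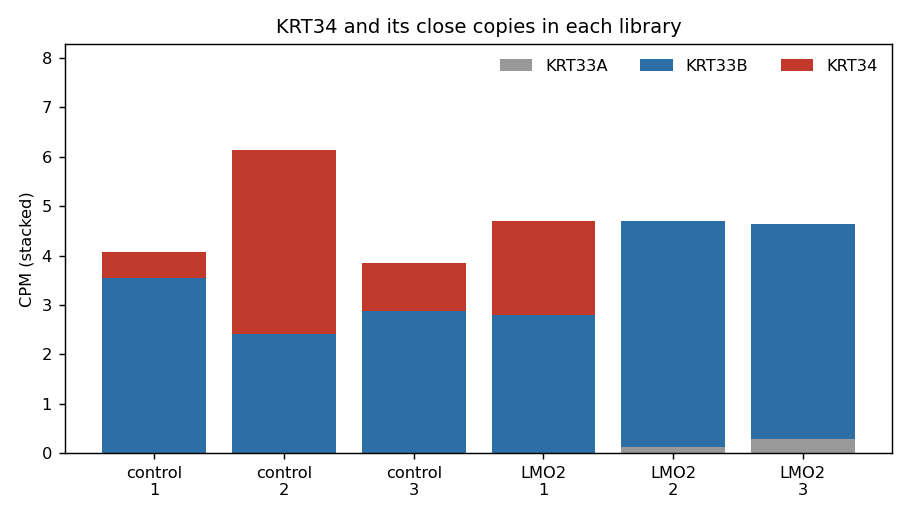
Stacked CPM (vertical axis) of KRT34 and its close copies KRT33B and KRT33A in each of the 6 libraries. The KRT34 segment is largest in control replicate 2 and absent from LMO2 replicates 2 and 3, whose totals of all 3 genes are close to that of LMO2 replicate 1.

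KRT81 (3887), a type II hair keratin, had 0 counts in all control libraries and 4, 3 and 1 counts in U87MG-LMO2. Its near copy KRT86 (3892) had 1 count, in U87MG-LMO2 replicate 3. Set against a floor of 3 counts for the control group, its 8 counts gave a depth-scaled ratio of 2.09. The 8 counts are taken as exact there, so the ratio leaves out their counting error and is no lower bound. The level was at most 0.13 FPKM, and the gene did not pass the filter.

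KRTAP1-5 (83895) showed the largest log2 fold change of the 5 members tested, whereas KRT80 differed more in CPM. It had 2, 3 and 1 counts in U87MG-control and 48.95, 86 and 81.92 counts in U87MG-LMO2. Levels were 0.15, 0.19 and 0.06 FPKM against 2.57, 4.99 and 3.87 FPKM, so the lowest U87MG-LMO2 library was far above the highest control. Means were 0.156 ± 0.0732 and 4.59 ± 1.46 CPM (SD, n = 3). The ratio of summed, depth-scaled counts was 28.3, with a 95% interval from 12.8 to 77.9, which is wide because the controls held 6 counts in all. The log2 fold change of 4.80 ± 0.45 (SE) was called, and leaving out any library gave values from 4.48 to 5.15 that were all called. The gene was chosen on this contrast and passed the filter only through its U87MG-LMO2 counts, so these calls are a description. Summed with its listed copies KRTAP1-1 and KRTAP1-4, KRTAP1-5 had a log2 fold change of 3.95 ± 0.40 (SE). These sums were 3, 5 and 4 counts in U87MG-control and 51, 95 and 87 in U87MG-LMO2.

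Other KRTAP genes were then examined, as KRTAP genes stand in clusters and are used together in the hair shaft. RefSeq lists 94 coding KRTAP genes, of which 16 had a line in these libraries. Of the other 15, 9 had at most 3 counts in every library. The mean CPM in U87MG-LMO2 was higher for 12 and lower for 3, but for those 9 it rests on a few reads. The U87MG-LMO2 libraries were also the deeper ones, and no share of equally low genes was computed. The 12 against 3 is therefore not read as a shift of the family. Only 1 of the 15 passed the filter, through its U87MG-LMO2 counts. That gene, KRTAP2-3 (730755), had 4, 4 and 0 counts in U87MG-control and 12, 57.69 and 13 in U87MG-LMO2. Its groups did not overlap, but 1 library held most of its counts, and its log2 fold change of 3.05 ± 0.96 (SE) was not called (edgeR adjusted p = 0.0891). It was called without U87MG-LMO2 replicate 3, without the filter on low counts and with the replicate number as a block. KRTAP16-1 (100505753) had 3, 4 and 2 counts in U87MG-control and 9, 14 and 25 in U87MG-LMO2, and did not pass the filter used here (it was called where no filter was applied). KRTAP1-1 (81851) had 0, 2 and 3 counts against 2.05, 9 and 5.08, and the groups overlapped. KRTAP2-1 (81872) had 11.31 counts in U87MG-LMO2 replicate 2, where KRTAP2-3 was highest, and 0 elsewhere. Together the 15 genes had 0.78 to 1.20 FPKM in U87MG-control and 1.98 to 7.28 FPKM in U87MG-LMO2. KRTAP1-5 was the most abundant KRTAP gene in each U87MG-LMO2 library, on the CPM scale and per length.

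**Figure D3:**
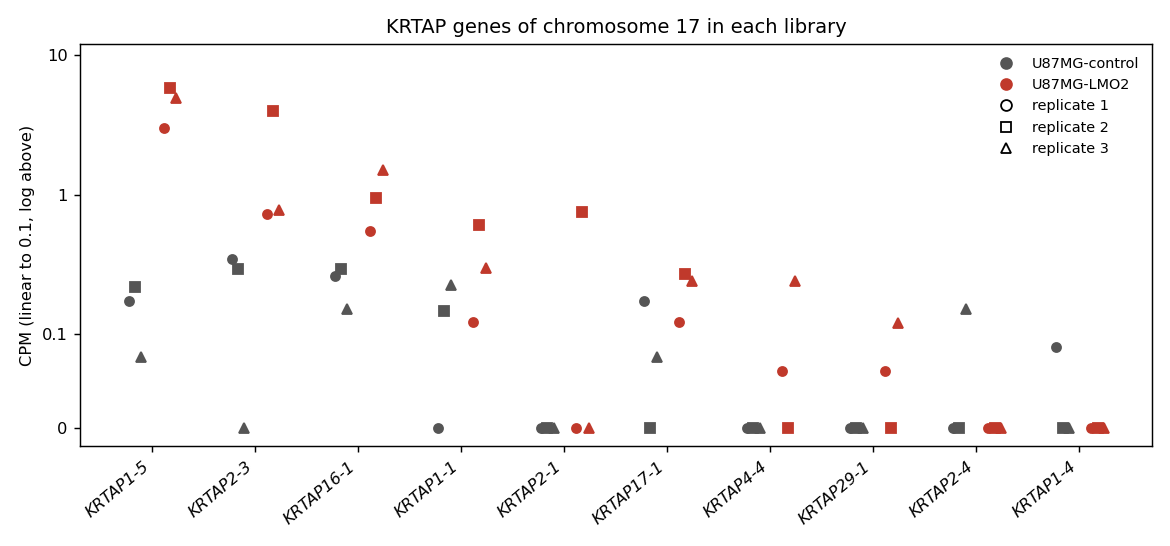
CPM (vertical axis, linear up to 0.1 and logarithmic above) of the 10 listed KRTAP genes of chromosome 17 in the U87MG-control (grey) and U87MG-LMO2 (red) libraries, with a symbol for each replicate. The groups are separate for KRTAP1-5, KRTAP2-3 and KRTAP16-1, and the other genes overlap at values near 0.

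Of 55 coding keratin genes in RefSeq, 31 had a line, 14 of these had at most 3 counts in every library, and 8 passed the filter. The basal and differentiating keratins of skin, KRT5, KRT14 and KRT1, had no line in any library. KRT10 (3858), a type I keratin of differentiating skin that is also found at low level in many cells, was the second most abundant keratin in each library. It had 3.59, 4.15 and 3.66 FPKM in U87MG-control and 4.83, 5.43 and 5.12 FPKM in U87MG-LMO2. Every U87MG-LMO2 library was above the controls, and the log2 fold change of 0.47 ± 0.14 (SE) missed the threshold (edgeR adjusted p = 0.0824). KRT33B was at 0.41 ± 0.26 (SE, edgeR adjusted p = 0.351) and KRT78 (196374), an epidermal type II keratin, at 0.10 ± 0.35 (SE, edgeR adjusted p = 0.882). KRT79 (338785), another epidermal type II keratin, was at -0.48 ± 0.28 (SE, edgeR adjusted p = 0.312). In all, 5 other keratin and KRTAP genes were tested and 0 were called by edgeR or DESeq2, with 2 (KRT10 and KRTAP2-3) at an unadjusted edgeR p under 0.05. Genes to which DESeq2 gave no adjusted p included KRT34, KRTAP2-3 and KRT78, and NEFM, OLIG2, VWF, TFAP2C and POSTN in the lists described later. The median log2 fold change of the 5 other family genes was 0.41, that of the 5 members tested 0.63 and that of all genes tested -0.01. No shift of the family is read from these medians. The members were chosen on this contrast, and KRTAP1-5 and KRTAP2-3 passed the filter only through their U87MG-LMO2 counts.

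**Figure D4:**
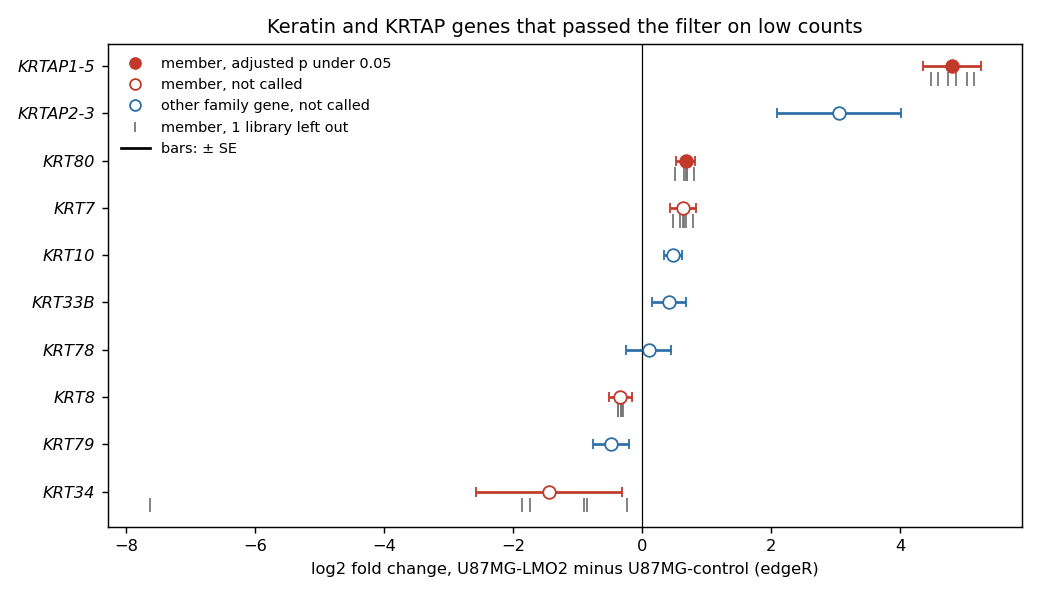
Log2 fold change (horizontal axis, U87MG-LMO2 minus U87MG-control, edgeR, bars ± SE) of the 10 keratin and KRTAP genes that passed the filter, with members in red and other family genes in blue, and filled points for calls. Grey marks show the values of members with 1 library left out, which stay close to the point for KRTAP1-5, KRT80, KRT7 and KRT8 and run from -7.64 to -0.24 for KRT34.

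Summed over the 12 listed type II keratins, levels were 11.0 ± 0.645 FPKM in U87MG-control and 14.5 ± 2.40 FPKM in U87MG-LMO2 (SD, n = 3). Without KRT80 they were 4.85 ± 0.511 and 4.87 ± 0.257 FPKM, so the sum of the other 11 genes differed by less than the spread between replicates. The 19 listed type I keratins summed to 7.92 ± 0.767 FPKM in U87MG-control and 8.90 ± 0.56 FPKM in U87MG-LMO2, and the groups' libraries overlapped.

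Vimentin (VIM, 7431), the filament protein of mesenchymal cells, was at 5166 ± 44.3 FPKM in U87MG-control and 5366 ± 256 FPKM in U87MG-LMO2 (SD, n = 3). That was 257 to 295 times the summed keratin FPKM in the control libraries and 201 to 269 times in the U87MG-LMO2 libraries. Of 14 other intermediate filament genes, 8 were tested and 0 were called by edgeR or DESeq2, with 0 at an unadjusted edgeR p under 0.05 and a median log2 fold change of 0.02. The nuclear lamins LMNA (4000) and LMNB2 (84823) followed in level, at 382 ± 5.87 and 129 ± 6.31 FPKM in U87MG-control and 422 ± 33.3 and 108 ± 10.7 FPKM in U87MG-LMO2. LMNB1 (4001) and SYNC (81493), which encodes syncoilin, were between 11.7 and 23.8 FPKM in the group means.

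**Figure D5:**
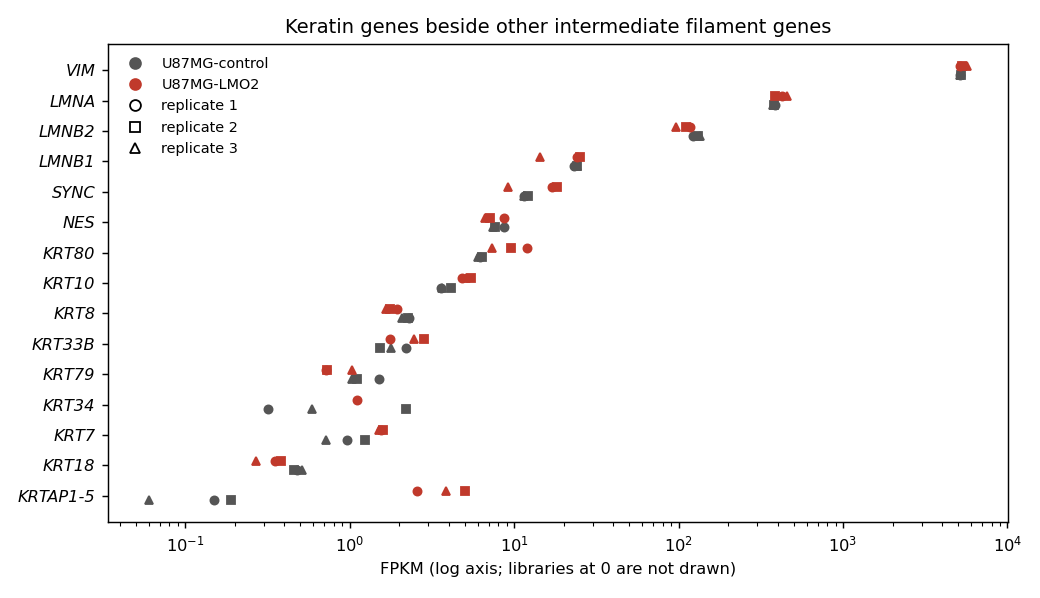
FPKM (horizontal log axis) of 9 keratin and KRTAP genes and 6 other intermediate filament genes in each library, U87MG-control in grey and U87MG-LMO2 in red, ordered by the control mean. Values of 0 are not drawn, which leaves out KRT34 in U87MG-LMO2 replicates 2 and 3. Vimentin stands far to the right of all keratins, KRT80 leads the keratins, and KRTAP1-5 has the widest gap between the groups.

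Keratin filaments are anchored by linker and junction proteins. Of 21 such partners, 14 were tested, 2 were called higher and 2 lower, with a median log2 fold change of -0.06. Among all 16092 genes tested, 4.72% were called higher and 2.75% lower. The partners were listed with earlier results of these data known. Plectin (PLEC, 5339), which links intermediate filaments to other structures, had 97.34, 107.59 and 106.3 FPKM in U87MG-control and 139.17, 135.54 and 141.88 FPKM in U87MG-LMO2. It rose by a log2 fold change of 0.43 ± 0.09 (SE, edgeR adjusted p = 0.0327). Epiplakin (EPPK1, 83481), a plakin that binds keratins, rose from 0.127 ± 0.0208 to 0.267 ± 0.0503 FPKM (SD, n = 3, edgeR adjusted p = 0.0340). The calls of PLEC and EPPK1 both ended with the GC-content correction (log2 fold change of PLEC 0.15), the replicate block, any control library left out or U87MG-LMO2 replicate 1 left out. Desmoglein 2 (DSG2, 1829), the desmosomal cadherin of simple epithelia, had 10.35, 7.09 and 7.73 FPKM in U87MG-control and 4.65, 4.70 and 3.97 FPKM in U87MG-LMO2. It changed by -0.88 ± 0.15 on the log2 scale (SE, edgeR adjusted p = 0.0157). ITGA6 (3655), the integrin subunit of hemidesmosomes, had 3.85, 3.74 and 3.34 FPKM against 1.72, 1.46 and 1.30 FPKM, a log2 fold change of -1.25 ± 0.13 (SE, edgeR adjusted p = 0.00344). Both groups were separate for each of these 4 genes. ITGA6 was called under every alternative run, and DSG2 lost its call without U87MG-control replicate 3 or U87MG-LMO2 replicate 1. DSP, which encodes the desmosomal plaque protein desmoplakin, was at 0.00333 FPKM in U87MG-control and 0 FPKM in U87MG-LMO2. PKP4 (8502), MACF1 (23499), DST (667) and PNN (5411), with means from 17.4 to 34.7 FPKM, had log2 fold changes from -0.35 to -0.05 and were not called by edgeR. DESeq2 called PKP4 lower as well (adjusted p = 0.0262), so that 3 partners were lower with that tool. At an unadjusted edgeR p under 0.05, 2 partners were higher and 5 lower. The share of all tested genes at that threshold was not computed, so no shift of the partners is read from these counts.

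Of 15 transcription factors known to act on keratin or hair genes, 10 were tested, 2 were called higher and 0 lower, with a median log2 fold change of 0.15. The shares among all genes tested were 4.72% higher and 2.75% lower, and this list too was chosen with earlier results known. The vitamin D receptor VDR (7421) had 3.69, 7.09 and 6.83 FPKM in U87MG-control and 19.61, 23.41 and 15.85 FPKM in U87MG-LMO2, a log2 fold change of 1.76 ± 0.22 (SE, edgeR adjusted p = 0.00567). TFAP2C (7022), an AP-2 factor of epithelia, rose from 0.127 ± 0.0987 to 0.650 ± 0.0755 FPKM (SD, n = 3, edgeR adjusted p = 0.0174). It had 2, 3 and 9 counts in U87MG-control and passed the filter only through its U87MG-LMO2 counts, so its call is a description. VDR was called under every alternative run, whereas TFAP2C was not called without U87MG-control replicate 1 or 2 or U87MG-LMO2 replicate 1, and DESeq2 gave it no adjusted p. RARG (5916), a retinoic acid receptor, was the most abundant gene of the list in both groups, at 24.0 ± 2.04 and 25.0 ± 1.74 FPKM (SD, n = 3, edgeR adjusted p = 0.640). HOXC13, a regulator of hair keratins, was at 0.01 FPKM or less in the mean of each group.

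Epithelial markers were mostly absent, and 19 of 24 stayed below 1 FPKM in every library. CDH1 (999), the epithelial cadherin, had 0.47, 0.42 and 0.47 FPKM in U87MG-control and 0.59, 0.60 and 0.45 FPKM in U87MG-LMO2, and EPCAM (4072) was between 0.04 and 0.27 FPKM. GRHL2, ESRP1 and OVOL1 were at or below 0.02 FPKM in the mean of each group. Of the 10 epithelial markers tested, CLDN4 (1364), a tight junction claudin, was called higher, from 0.533 ± 0.0569 to 1.12 ± 0.167 FPKM (SD, n = 3, edgeR adjusted p = 0.0422), and 0 were called lower. Among all genes tested, 4.72% were called higher and 2.75% lower. The call of CLDN4 was lost with DESeq2, the replicate block, the GC-content correction and each of the 6 fits with 1 library left out. MUC1 (4582), a mucin, was the most abundant of them, at 13.0 ± 2.44 and 15.9 ± 7.96 FPKM (SD, n = 3), and was not called. The summed level of the list was 20.8 to 25.4 FPKM in U87MG-control and 21.4 to 35.4 FPKM in U87MG-LMO2. For the 12 keratinocyte markers it was 4.34 to 5.10 and 5.89 to 6.51 FPKM, most of it KRT10, so that the separation of these sums follows that gene. Of 3 tested, edgeR and DESeq2 called 0, and at an unadjusted edgeR p under 0.05 KRT10 was higher and FLG lower.

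Glial markers were also low. Of 12, 9 stayed below 1 FPKM in every library, leaving aside the line of GFAP in U87MG-LMO2 replicate 3, which was damaged. GFAP, the astrocyte filament gene, was at 0.203 FPKM in U87MG-control. The summed glial level was 16.6 to 21.1 FPKM in U87MG-control and 14.5 to 16.6 FPKM in U87MG-LMO2, chiefly SLC1A3 and NES. Of 5 tested, 0 were called by edgeR or DESeq2, and 0 had an unadjusted edgeR p under 0.05. Mesenchymal markers summed to 6052 to 6115 FPKM in U87MG-control and 6611 to 7632 FPKM in U87MG-LMO2, and 6 of 11 tested were called higher and 0 lower. Of all 16092 genes tested, 4.72% were called higher and 2.75% lower. The list was chosen with earlier results of these data known, so no shift of mesenchymal genes is read from this count. The 6 mesenchymal calls became 2, 1 and 1 without U87MG-control replicates 1, 2 and 3, 3 without U87MG-LMO2 replicate 1 and 8 without U87MG-LMO2 replicate 2 or 3. Called genes were COL1A1 (1277, log2 fold change 1.02), COL1A2 (1278, 0.69), COL6A1 (1291, 0.72), SPARC (6678, 0.81), PDGFRB (5159, 0.93) and POSTN (10631, 1.62). POSTN had 18 counts in all in U87MG-control, and DESeq2 gave it no adjusted p. It passed the filter only through its U87MG-LMO2 counts, so its call is a description. Its call was lost with either limma fit, the replicate block and each library left out except U87MG-LMO2 replicate 3. FN1 (2335), which encodes fibronectin, was at 373 ± 62.8 and 718 ± 314 FPKM (SD, n = 3) and was not called. Blood and endothelial markers summed to 1.16 to 1.55 FPKM in all libraries, and of 2 tested 0 were called by either tool, with 0 at an unadjusted edgeR p under 0.05. Most of the summed mesenchymal level was VIM, whose groups overlapped and which was not called. FN1 reached 1079.12 FPKM in U87MG-LMO2 replicate 3, so the sum is no measure of the mesenchymal list as a whole. The part of the mesenchymal markers, whose summed level did not overlap between the groups, in the values of KRT80 and KRTAP1-5 was not tested.

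Among 15539 genes with at least 1 CPM in the mean of either group, those whose log2 CPM was most like that of each member over the 6 libraries were listed as a description, since 6 libraries in 2 groups and so many genes give high correlations. For KRTAP1-5 they were RAB34 (r = 0.999), PXDC1 (r = 0.999) and GPR107 (r = 0.995). For KRT80 they were SSX6P (r = 0.991), LRRC37A8P (r = 0.986) and TSPYL4 (r = 0.986). NCOR1, ZNF780B and LOC102724034 were most like KRT8 (r from 0.989 to 0.998), C16orf95, POLR2J4 and a gene without a symbol most like KRT7 (r from 0.988 to 0.989), and IYD, TRIM21 and DCDC2 most like KRT34 (r from 0.982 to 0.989). No keratin or KRTAP gene stood among these 15 genes.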

How the data were processed

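RNA-seq of 3 U87MG-control and 3 U87MG-LMO2 libraries was made by a service company. The authors deposited expected counts, which are unnormalized estimates of reads per gene. FPKM, deposited beside them, divide these by gene length and mapped reads and carry 2 decimals. The submitters' processing notes name BWA, Bowtie2 and GRCh38.p12, and the counting program is not given in the sources used here. The authors' table of the comparison holds mean FPKM per group, log2 ratios and probabilities, and only its symbols and means were used, to check the library tables. All 27259 genes matched the control mean within 0.001 FPKM and 27125 the U87MG-LMO2 mean. The other 134 genes, damaged in U87MG-LMO2 replicate 3, were left out of tests, and no member was among them. Genes without a line were taken as 0 counts. RefSeq (GRCh38.p14) named 89.6% of the genes by Entrez ID.

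Expected counts were rounded and tested with edgeR 4.0.16 (filterByExpr, TMM, glmQLFit and glmQLFTest, 2-sided, Benjamini-Hochberg adjustment over 16092 genes) in R 4.3.3. The SE is the log2 fold change divided by the square root of F. Tested on simulated data with 15903 genes of these libraries, the fit recovered 61% of 2-fold and 95.8% of 4-fold changes, and 8.9% of its calls were false. The simulation changed only 200 genes and held no deviating library such as U87MG-LMO2 replicate 3, so these rates need not hold for the real libraries. Alternatives were no filter, at least 10 counts in every library, upper-quartile normalization, DESeq2 1.42.0, limma 3.58.1 on log2(FPKM + 1) and log2(FPKM + 0.1), a replicate block, leaving out each library, a GC-content correction (lowess span 0.3, GC known for 89.8% of tested genes) and summing close copies.

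The members and gene lists were chosen with earlier results of these data known. Named were LMO2, all members and close copies, other keratin, KRTAP or list genes that were called, the most abundant gene of each list and list genes over 10 FPKM, and the 3 genes most like each member of at least 1 CPM. Other family and list genes given with values, such as KRTAP16-1, KRTAP1-1, KRT10, CDH1 and SLC1A3, were chosen after their values were seen.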

Additional observations from a re-analysis of the deposited data

How the results depend on the processing

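The directions of LMO2, KRT7, KRT8, KRT34, KRT80 and KRTAP1-5 did not turn under any alternative that tested them, and LMO2 and KRTAP1-5 were called in each of them, whereas both, and KRT34, were removed by a minimum of 10 counts per library. KRT80 was not called with limma on log2(FPKM + 1) (0.54), limma on log2(FPKM + 0.1) (0.60), the GC-content correction (0.56) or the replicate block (0.65), and was 0.51 to 0.80 with 1 library left out. Accordingly 1 member was called higher under these alternatives and under the 10-count minimum, which left KRT80, and 1 to 2 with 1 library left out. The replicate block gave 387 genes higher and 189 lower, and DESeq2 gave 691 lower, against 760 and 443. With 1 library left out, 102 to 1307 genes were higher and 42 to 1102 lower, with the most calls without U87MG-LMO2 replicate 3 and the fewest without U87MG-control replicate 3. The cause of these changes was not tested. Same-numbered libraries did not deviate together (r of -0.12, 0 and -0.04). With 3 libraries per group, these values do not decide whether same-numbered libraries were handled together, and the labels do not say.

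Of other keratin and KRTAP genes, 2 were called higher without the filter, 1 with the replicate block and 0 to 1 with 1 library left out. Among keratin partners, 1 was higher with either limma fit, 0 with the block or GC correction, and 0 to 3 (lower 1 to 3) with 1 library left out. Keratin gene regulators higher numbered 1 with DESeq2, which gave TFAP2C no adjusted p, 1 with the 10-count filter and 1 to 2 with 1 library left out. CLDN4 was not called by DESeq2, the block, the GC correction or any fit with 1 library left out, which gave 0 epithelial markers higher. With 1 library left out, 1 to 8 mesenchymal markers were higher, 0 to 1 glial markers lower, 0 to 1 keratinocyte markers higher and 0 to 1 lower, and 0 to 1 other intermediate filament genes higher and 0 to 1 lower. Depth limits KRT18, KRT19, KRT81 and the controls of KRTAP1-5, which held 6 counts in all.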
